A study of Mus musculus with 2 samples.

Results

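The common gamma chain cytokine system was described here by 8 genes, of 18786 in the table: the receptor chains Il7r, Il2ra, Il2rb, Il2rg, Il4ra, Il9r and Il21r, and the ligand Il2. They were chosen by name, and all 8 were present in the table. The cells were innate lymphoid cells (ILCs), lymphocytes that lack a rearranged antigen receptor, taken from the skin of C57/BL6 mice on postnatal day 1 and postnatal day 14, 1 library a day. They were sorted as CD45+, lineage-negative and Thy1.2+ and libraries were made with the 5' kit of 10x Genomics. The 5246 cell names carry 1 of 2 suffixes, called cell set 1 and cell set 2 below. Nothing in the labels ties a suffix to a day, so neither set was given an age, and every statement is about the sets. How many mice each library pooled is not given in the sources used here, and the labels name no genetic alteration or treatment.

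The common gamma chain, encoded by Il2rg, is the signalling subunit shared by the receptors for IL-2, IL-4, IL-7, IL-9, IL-15 and IL-21. Each receptor adds a chain of its own: Il7r for IL-7, Il4ra for IL-4, Il9r for IL-9 and Il21r for IL-21. The IL-2 receptor adds the beta chain Il2rb, which also serves IL-15, and the alpha chain Il2ra, which raises the affinity for IL-2. Signals pass through the kinases JAK1 and JAK3 to STAT proteins, and IL-7 in particular maintains ILCs. IL-2 is best known as a product of activated T cells, and ILCs are known both to respond to it and, in some tissues, to make it.

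Positions below are those of the GRCm38 build, which is the mm10 build of the submitters' processing notes. Il2 spans chr3:37120523-37125959 on the minus strand, Il2ra chr2:11642807-11693193 on the plus strand and Il2rb chr15:78479256-78495271 on the minus strand. Il2rg lies on the X chromosome at chrX:101264378-101268255 and Il7r at chr15:9505788-9530176, both on the minus strand. Il9r lies at chr11:32187541-32200279 on the minus strand. Il4ra, at chr7:125552120-125579474, and Il21r, at chr7:125603429-125633570, are neighbours on the plus strand with 23954 bases and 0 annotated genes between them. RefSeq promoter entries were matched for 7 of the 8 genes, Il2rb having none. The 240 bases from position -250 to position -11 before the annotated start are shown for the ligand, for the receptor chain that differed most beside it, and for the chain that differed the other way. In the Il2 and Il2ra sequences capitals mark GGAAA on either strand, the core letters bound by NFAT factors, and in Il2 also TATAAA. In the Il9r sequence they mark AGATAA on either strand, a motif of GATA factors.
Il2 promoter, chr3:37125965-37126204, minus strand: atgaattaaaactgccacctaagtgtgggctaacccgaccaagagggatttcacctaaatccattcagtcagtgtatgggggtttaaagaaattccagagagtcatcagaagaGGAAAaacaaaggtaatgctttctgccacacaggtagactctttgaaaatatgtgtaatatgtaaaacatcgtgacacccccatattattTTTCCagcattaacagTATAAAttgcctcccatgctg
Il2ra promoter, chr2:11642542-11642781, plus strand: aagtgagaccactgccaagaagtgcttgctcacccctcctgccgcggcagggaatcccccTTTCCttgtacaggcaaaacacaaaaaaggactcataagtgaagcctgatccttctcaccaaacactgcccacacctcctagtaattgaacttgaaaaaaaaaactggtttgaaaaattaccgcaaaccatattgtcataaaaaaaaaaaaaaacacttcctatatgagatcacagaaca
Il9r promoter, chr11:32200290-32200529, minus strand: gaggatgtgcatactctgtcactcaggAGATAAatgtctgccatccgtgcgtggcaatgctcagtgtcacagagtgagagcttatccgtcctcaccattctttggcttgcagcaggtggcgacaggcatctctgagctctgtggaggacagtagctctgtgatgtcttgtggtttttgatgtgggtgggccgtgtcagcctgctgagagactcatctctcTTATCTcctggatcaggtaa
The Il2 window held 2 matches to GGAAA, which 20.1% of 32851 promoter windows of this length matched or exceeded, and TATAAA at position -31, a motif present in 12.1% of windows. The Il2ra window held 1 GGAAA, as did those of Il7r, Il2rg and Il4ra, and 54.1% of all windows held at least 1. The Il9r window held AGATAA at 2 places, and 9.74% of windows held it. The AP-1 letters TGANTCA were found in 0 of the 7 windows against 6.58% of all, and the STAT letters TTCNNNGAA in Il7r alone against 6.77% of all. Both strands were read, no match overlapped another, and a match is a description of the letters only.

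Only cells with at most 10% mitochondrial counts were used, which were 1441 of the 1471 cells of set 1 and 3508 of the 3775 of set 2. The sets differed in depth, with medians of 10683 and 4849 unique molecular identifiers (UMIs, tags that let each captured RNA molecule be counted once) a cell. There was no replicate of either set, so no test was run, and the 95% intervals in parentheses cover counting error only. T cells, which also use these genes, were looked for by their markers: Cd3e was at 7.39 and 5.94 UMIs per 1000000 (CPM) in sets 1 and 2, Foxp3 at 0.666 and 0.111, and Gata3, a factor that group 2 ILCs (ILC2) depend on, at 577 and 593. The whole alpha beta T cell list, with 10 of 11 genes in the table and a UMI for each, summed to 1250 and 1475 CPM. Of this Cd3g, a CD3 subunit gene, gave 457 and 533 CPM, while Cd5 was at 0.0606 and 1.11 CPM. Trac, also on this list, was at 10.5 and 19.5 CPM. Much of the sum came from genes of the list whose levels are not given here. The list also holds Cd3d, Cd4, Trbc1, Trbc2, Cd8a, Cd8b1 and Cd28. The regulatory T cell list summed to 404 and 687 CPM, and the gamma delta T cell list to 172 and 329 CPM. The part of these lists in the values below was not tested other than by leaving out cells with UMIs of T cell markers. Those markers were Cd3e, Cd3d, Trac, Cd8a and Foxp3, so cells with UMIs of other list genes alone stayed in. Across 9495 genes with at least 100 UMIs, the median log2 ratio of set 2 over set 1 was -0.09, and another scaling, by trimmed mean of M values (TMM), moved all log2 ratios by 0.15.

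Of the 8 genes, 7 were at a higher level in set 2 than in set 1, and 6 were past 1.5-fold on CPM with 10 added: Il21r, Il9r, Il2, Il4ra, Il7r and Il2rg. Past the same fold, 6.79% of all genes were higher in set 2 and 10.3% lower, 17.1% in all, and 0 of the 8 were lower. The median log2 ratio of the 8 genes on that scale was 0.78. Members of this small group are transcribed in the same cells and are not independent of each other.

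Il2rg, the shared chain, stood at 296 CPM (287 to 304) in set 1 and 467 CPM (457 to 477) in set 2, giving a ratio of 1.58 (1.53 to 1.64). Il7r, the IL-7 receptor alpha chain, was at 531 CPM (520 to 542) and 851 CPM (837 to 864), giving a ratio of 1.60 (1.56 to 1.65). The chains for IL-7 signalling thus differed by similar ratios, whose intervals overlap.

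Il21r showed the widest difference of the 8, from 23.9 CPM (21.6 to 26.3) in set 1 to 129 CPM (124 to 135) in set 2, 5.43 times as high (4.88 to 6.05). Of all genes, 0.263% had a higher log2 ratio. Its genomic neighbour Il4ra, the IL-4 and IL-13 receptor alpha chain, was at 78.8 CPM (74.6 to 83.2) and 153 CPM (148 to 159), giving a ratio of 1.95 (1.82 to 2.08). Il9r, the IL-9 receptor alpha chain and one of the ILC2 marker genes used here, was at 21.7 CPM (19.5 to 24.1) and 62.7 CPM (59.1 to 66.5), giving a ratio of 2.89 (2.56 to 3.26).

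Il2rb and Il2ra, the other chains of the IL-2 receptor, were the members within the fold. Il2rb was at 249 CPM (241 to 256) in set 1 and 317 CPM (309 to 325) in set 2, giving a ratio of 1.27 (1.22 to 1.33), which was 1.55 (1.48 to 1.61), past the fold, without the cells of cluster 1, described below. Il2ra was the exception in direction, at 124 CPM (119 to 130) and 111 CPM (106 to 116), giving a ratio of 0.892 (0.838 to 0.949). Under the TMM scaling the Il2ra ratio was 0.992, and without cluster 1 it turned to 1.12 (1.05 to 1.19), so no direction of Il2ra between the sets held throughout.

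Il2 itself stood at 33.5 CPM (30.8 to 36.4) in set 1, from 553 UMIs, and at 73.2 CPM (69.3 to 77.3) in set 2, from 1320 UMIs, giving a ratio of 2.19 (1.98 to 2.42). Without cluster 1 the ratio was 1.24 (1.10 to 1.40), within the fold. The count of 6 members past the fold was the same without cluster 1, with Il2rb in the place of Il2. Its UMIs were unevenly spread: the 1% of cells richest in Il2 held 23.5% of its UMIs in set 1 and 24.7% in set 2, with up to 16 and 32 UMIs in a single cell. Among cells with any Il2 UMI, 57.3% and 64.7% had exactly 1.

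**Figure D1:**
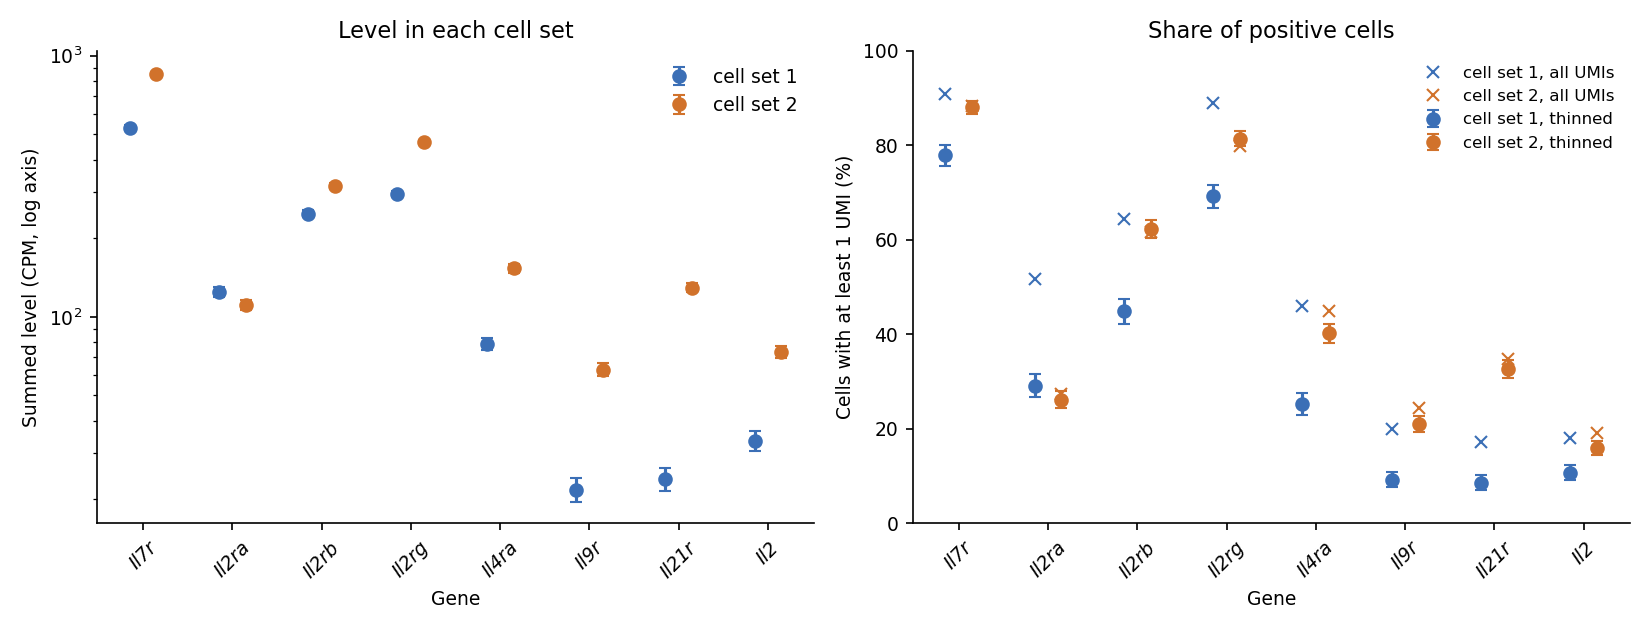
Left, summed level of each gene (CPM, log axis) in cell set 1 (blue) and cell set 2 (orange) with exact Poisson 95% intervals. Right, percent of cells with at least 1 UMI, from all UMIs (crosses) and after thinning every cell to 4108 UMIs (circles, exact 95% intervals). Il2ra is the gene whose level is not higher in set 2. Thinned shares also leave out cells below 4108 UMIs. They are lower than the shares from all UMIs for every gene in set 1, and change less in set 2, where those of Il2rb and Il2rg are slightly higher.

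Shares of positive cells depend on depth, so each cell was also thinned to 4108 UMIs, a depth that 63 cells of set 1 and 1174 of set 2 did not reach. Il7r was found in 90.9% of set 1 and 88.3% of set 2 before thinning, and in 77.9% (75.7 to 80.1) and 88.0% (86.7 to 89.3) after it. Il2rg was found in 89.0% and 79.8% before, and in 69.2% (66.7 to 71.7) and 81.4% (79.8 to 83.0) after. For both genes the order of the sets therefore turned with thinning, and the thinned order is that of the CPM. Thinning here both lowers depth and leaves out the shallower cells, and the part of each was not tested.

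Il2rb was found in 64.4% and 61.6% of cells, and after thinning in 44.8% (42.2 to 47.5) and 62.3% (60.3 to 64.3). Il2ra was found in 51.8% and 27.3%, and after thinning in 29.2% (26.8 to 31.7) and 26.1% (24.4 to 28.0), intervals that overlap. Il4ra was found in 46.0% and 44.9%, and after thinning in 25.3% (23.0 to 27.6) and 40.2% (38.2 to 42.2). Thinning draws UMIs at random. The Il2ra shares expected over all such draws were 31.1% (28.7 to 33.7) and 26.3% (24.5 to 28.1), intervals that do not overlap. The gap of Il2ra between the sets was thus smaller at equal depth, and whether its intervals overlapped depended on the draw and on the cells used. Those of Il2rb and Il4ra were wider apart after thinning than before it.

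Il21r was found in 17.3% and 34.7% of cells, and after thinning in 8.56% (7.14 to 10.2) and 32.6% (30.7 to 34.6). Il9r was found in 19.9% and 24.4%, and after thinning in 9.29% (7.81 to 10.9) and 21.0% (19.3 to 22.7). Il2 was found in 18.0% and 19.2%, and after thinning in 10.7% (9.09 to 12.4) and 15.9% (14.5 to 17.5). For these 3 genes the thinned intervals of the sets do not overlap, but for Il2 this rested on cluster 1, described below: without it the thinned shares were 10.8% (9.23 to 12.6) and 10.2% (8.80 to 11.7). RNA released from other cells can place UMIs in cells that do not express a gene, and no cell type lacking all 8 genes was large enough to measure it. Of the cells with UMIs of at least 4 keratinocyte markers in set 1, 240 in number, 92.9% also held Il7r, so these were not cells without lymphocyte RNA. The lowest share of any gene was that of Il9r in cluster 4 of set 1, where 1 of 147 cells had a UMI.

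Other genes of the pathway came from a list of 57, of which 52 had at least 50 UMIs. Past 1.5-fold, 14 of the 52 were higher in set 2 and 7 lower, with a median log2 ratio of 0.23 against -0.09 for all genes. The counts of the sub-lists below stand beside the same 6.79% of all genes that were higher and 10.3% that were lower, and nothing particular to a sub-list was read from them. Of 3 measured ligands, Il4 was lower in set 2 (74.0 against 29.7 CPM), Il15 was higher (2.12 against 12.4 CPM), and Il13, which signals through Il4ra, was within the fold (242 against 362 CPM). RNA for Il7 and Il9 was nearly absent, at 4 and 7 UMIs in set 1 and 0 in set 2. Of the 2 other measured receptor chains neither passed the fold: Crlf2, the TSLP receptor chain that pairs with Il7r, was at 61.9 and 87.5 CPM, and Il15ra at 5.63 and 3.66 CPM.

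Among 10 kinases and STATs, 3 were higher in set 2 and 0 lower. Stat5a, a main carrier of IL-2 and IL-7 signals, went from 19.3 CPM in set 1 to 53.7 CPM in set 2, Stat4 from 33.1 to 63.0 and Jak2 from 150 to 248. Of 6 negative feedback genes, 0 were higher in set 2 and 3 lower: Socs2 (205 against 74.6 CPM) and Socs3 (76.9 against 28.0 CPM), inhibitors of cytokine receptors, and the phosphatase gene Ptpn2 (118 against 74.1 CPM). Socs1 was at 58.2 and 85.9 CPM, within the fold.

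Of 14 genes known as STAT5 or STAT6 targets, 4 were higher in set 2 and 2 lower. Furin, a protein-processing enzyme, was at 401 CPM in set 1 against 1261 CPM in set 2, and Lta, which encodes lymphotoxin alpha, at 10.8 and 35.3 CPM. The lower genes were Pparg, a nuclear receptor of ILC2 and fat cells, at 17.9 and 2.44 CPM, and the survival gene Mcl1 at 357 and 215 CPM. Of 17 factors known to bind or induce the Il2 promoter, 6 were higher in set 2 and 1 lower. The early-response gene Fosb was at 197 and 587 CPM, the NF-kappaB subunit gene Rel at 414 and 891 CPM, Nfatc3 at 50.2 and 104 CPM, and Jun, the lower one, at 365 and 182 CPM.

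**Figure D2:**
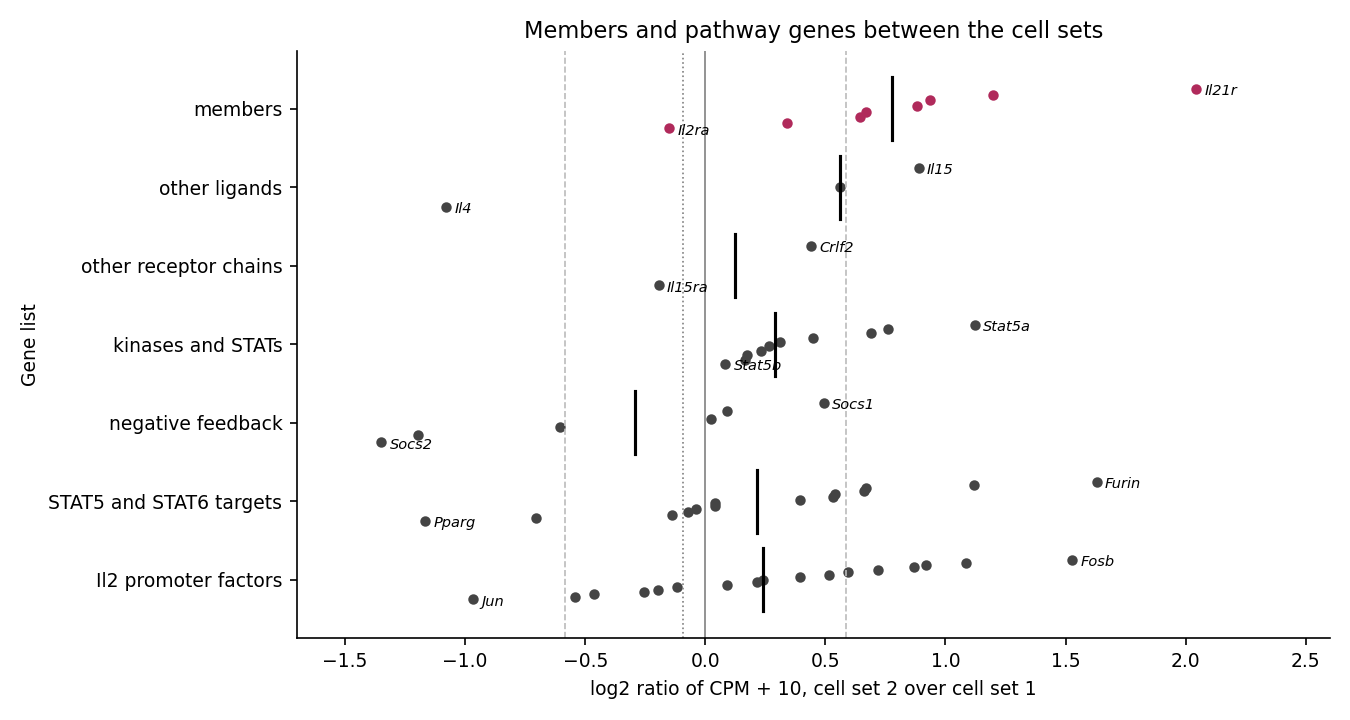
Log2 ratio of CPM + 10, cell set 2 over cell set 1, for the 8 genes (top row) and the measured genes of each pathway list (1 point a gene, black bars at the list median, the lowest and highest gene named). Dashed lines mark 1.5-fold and the dotted line the median of all genes, and the 8 genes run from Il2ra at -0.15 to Il21r at 2.04.

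Clusters of cells divided the genes further. Clustering gave 8 clusters, called by number, and most lay largely in 1 set. Cluster 0 (785 cells of set 1, 27 of set 2) was led by Slc38a4, Cma1 and Calca, cluster 1 (13 and 1030) by Hspa1b and Hspa1a, which encode heat-shock proteins, with Id3, Fosb and Il2, and cluster 5 (9 and 1858) by Hopx, Ccr7, Cd70 and Il21r. Cluster 2 (166 and 313) was led by hair keratin-associated genes, cluster 3 (320 and 117) by cell-cycle genes, and cluster 4 (147 and 12) by Il22, Tyrobp and Fcer1g. Cluster 6 (1 and 65) was led by Il1rl1 and Klrg1, and cluster 7 (0 and 86), at a median of 1162.5 UMIs, by Nabp1 and Neat1. Il2, Il2ra and Il21r were among the variable genes that built the clusters, so differences between clusters are a description and were not tested.

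Il2 was concentrated in cluster 1 of set 2, at 161 CPM (150 to 172), where 34.2% of cells had a UMI and 59.8% of the set's Il2 UMIs lay. Cluster 2 of set 2 followed at 129 CPM (109 to 150), its interval meeting that of cluster 1. Cluster 3 was at 49.3 CPM (37.5 to 63.6), and cluster 5, the most numerous, at 28.3 CPM (25.1 to 31.8). In set 1 the levels ran from 17.7 CPM (14.3 to 21.6) in the cycling cluster 3 to 57.6 CPM (44.8 to 72.9) in cluster 2. Clusters 0 and 4 of set 1 lay between, at 37.5 and 40.0 CPM, with overlapping intervals. These extremes depend on where the clusters divide: in 3 other clusterings the highest Il2 level of a cluster was 90.7 to 158 CPM in set 1 and 161 to 163 CPM in set 2.

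Il2ra ran the opposite way in set 2. It was at 605 CPM (529 to 689) in the 65 cells of cluster 6, 4.47 times (3.87 to 5.15) the 135 CPM of cluster 5, and at 35.8 and 32.8 CPM in clusters 1 and 2, whose intervals overlap. Cluster 6 also held 1966 CPM of Gata3 and 624 CPM of Il1rl1, the IL-33 receptor. In set 1 Il2ra varied less, from 83.5 CPM in cluster 2 to 153 CPM in cluster 4.

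Il2rb was highest in cluster 4 of set 1, at 753 CPM (706 to 804), 3.44 times (3.18 to 3.73) the level in cluster 0. It was lowest in cluster 2 of both sets, at 28.4 CPM (19.6 to 39.7) in set 1 and 53.2 CPM (41.1 to 67.9) in set 2. In set 2 it was at 431 CPM in cluster 5 and 132 CPM in cluster 1, giving a ratio of 3.27 (3.01 to 3.56). Il21r had nearly the same ratio between those clusters, 188 against 58.4 CPM and 3.22 (2.84 to 3.66), and stood at 16.4 CPM in cluster 2.

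Il4ra was likewise low in cluster 2, at 15.9 CPM in set 1 against 30.3 CPM in set 2. It reached 176 CPM (154 to 201) in cluster 4 of set 1, 188 CPM (179 to 196) in cluster 5 of set 2, and 420 CPM (308 to 560) in the shallow cluster 7, where it rests on 46 UMIs. Il9r had the reverse pattern: cluster 2 was the highest at 118.8 CPM (100.2 to 139.7) in set 2 and, at 37.6 CPM, also in set 1, and cluster 4 of set 1 had 1 UMI, or 0.816 CPM (0.0207 to 4.55), against 23.7 CPM in cluster 0.

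Il7r ran from 497 CPM in cluster 0 to 725 CPM in cluster 2 in set 1, and in set 2 from 554 CPM in cluster 3 to 982 CPM in cluster 2 and 1616 CPM (1387 to 1873) in cluster 7. Il2rg varied least between clusters, from 276 to 393 CPM in set 1 and from 352 to 594 CPM in set 2. Cluster 2 thus had the highest Il9r of both sets and the highest Il7r apart from the shallow cluster 7, while its Il2rb, Il4ra and Il21r were the lowest of clusters with at least 50 cells, also in both sets. In set 2 its Il9r interval overlapped those of cluster 7, at 100 CPM (50.1 to 180), and of the 27 cells of cluster 0, at 81.4 CPM (42.1 to 142).

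The extremes of other members moved with the clustering as well. In the 3 other clusterings the highest Il2rb level of set 1 was 296 to 790 CPM, the highest Il4ra level of set 1 96.5 to 187 CPM, the highest Il21r level of set 1 29.8 to 60.0 CPM and the highest Il2ra level of set 2 307 to 565 CPM. The highest Il9r level of set 2 was 88.3 to 123 CPM. The lowest level of set 2 was 54.8 to 103 CPM for Il2rb, 30.9 to 95.1 CPM for Il4ra and 0 to 39.3 CPM for Il21r. The lowest level of set 1 was 15.4 to 35.5 CPM for Il2rb, 8.54 to 16.5 CPM for Il4ra, 9.20 to 18.1 CPM for Il2 and 0.780 to 19.7 CPM for Il9r.

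**Figure D3:**
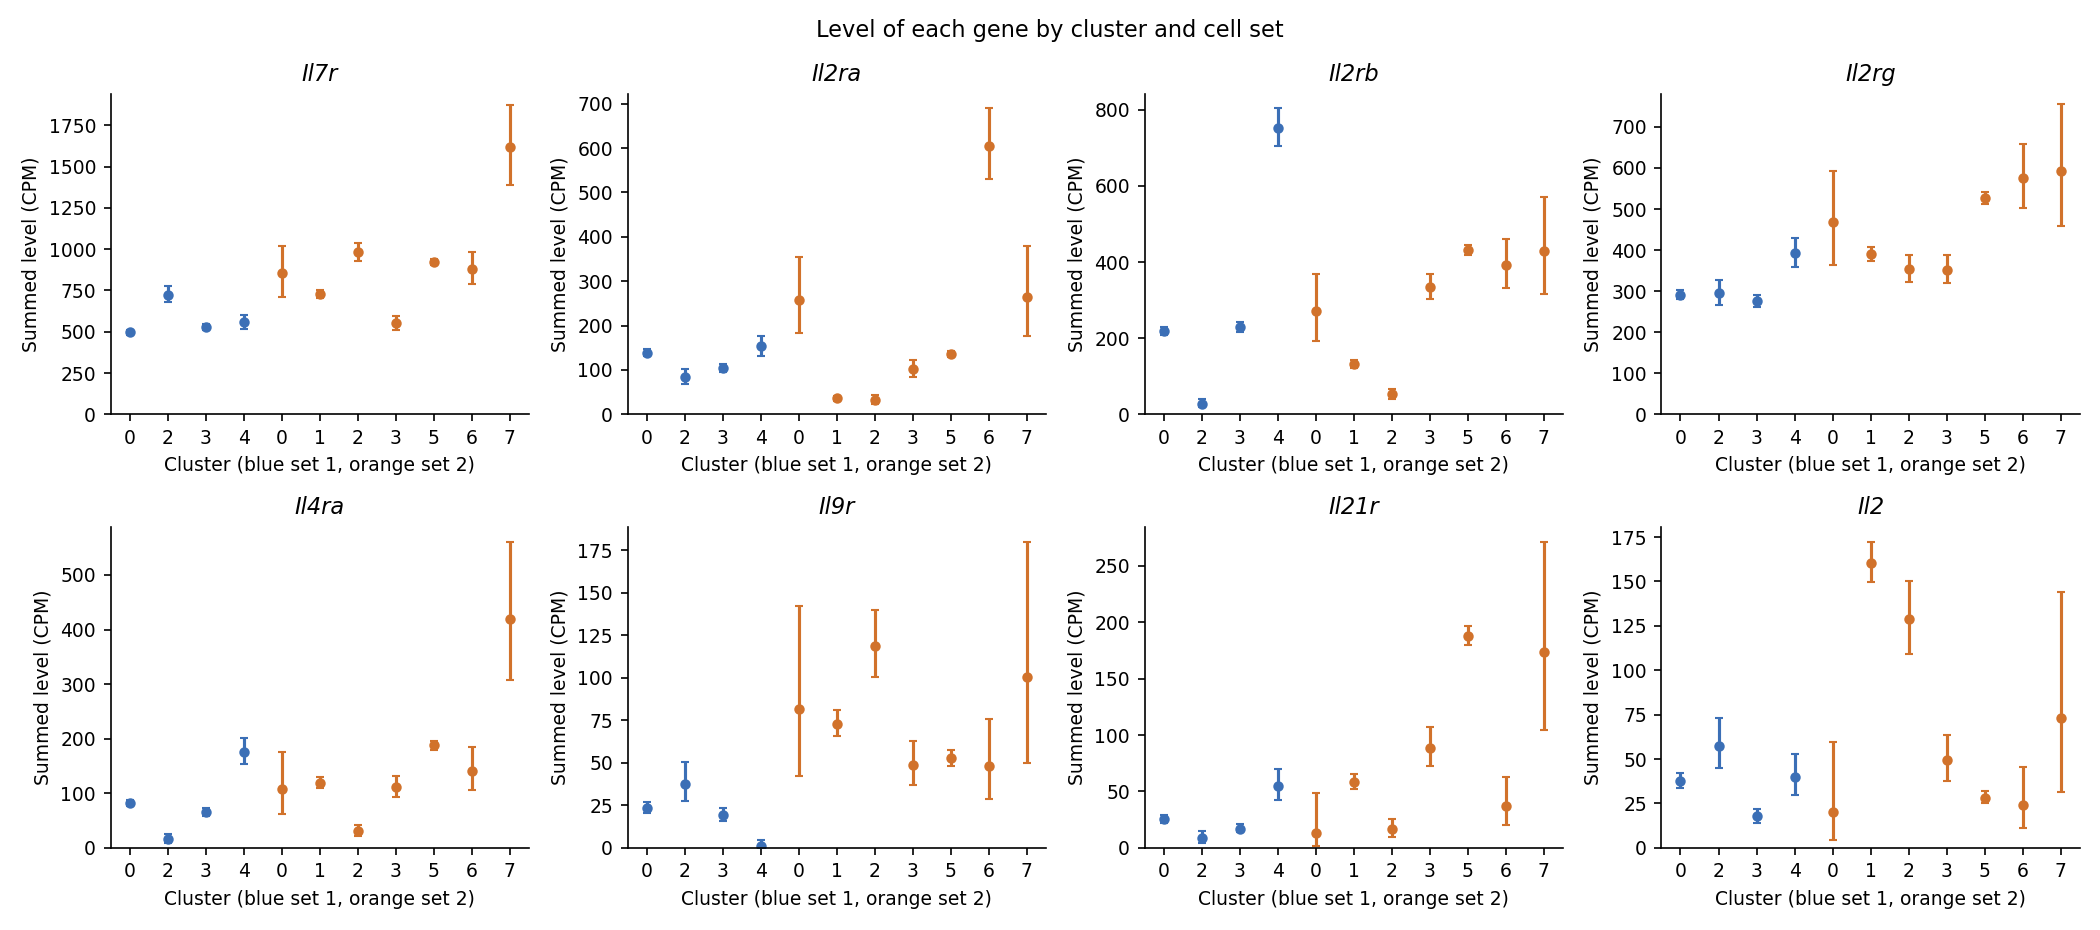
Summed level (CPM, linear axis from 0) of each gene in each cluster with at least 20 cells, set 1 in blue and set 2 in orange, with exact Poisson 95% intervals. Il2 peaks in clusters 1 and 2 of set 2, where Il2ra, Il2rb and Il21r are low, and Il2ra peaks in cluster 6.

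Over the 10 groups of at least 50 cells made by cluster and set, the genes with the most similar pattern to each member were named by Pearson correlation of log2(CPM + 10), as a description over groups that share libraries and depth. For Il2 these were Rhob (0.95), St3gal2 (0.89), Sp110 (0.89), Dbp (0.88) and Arrb2 (0.88). For Il2ra they were Nxnl2 (0.94), Dcaf12 (0.93), Gnaz (0.93), Fndc3a (0.92) and Crk (0.92), and for Il2rb Kctd12 (0.97), Isy1 (0.96), Rnf125 (0.96), Gch1 (0.95) and Fhl2 (0.95). For Il21r they were Ankrd39 (0.96), Arrdc3 (0.94), Ski (0.94), Whrn (0.93) and Kdm2b (0.93). Kdm2b was also among those for Il4ra (0.98), after Neurl3 (0.98), Ern1 (0.98), Gfod1 (0.98) and Tgif1 (0.98). For Il7r they were led by the pan-leukocyte gene Ptprc (0.97), then Cd84 (0.96), Zbtb20 (0.95), Dync1h1 (0.95) and Spn (0.95). For Il2rg they were Fmnl1 (0.96), Ptpn3 (0.93), Smad3 (0.93), Rbpj (0.93) and Tle3 (0.93), and for Il9r Map4k1 (0.97), Ablim1 (0.95), Galnt6 (0.94), Fam69a (0.93) and Glcci1 (0.93).

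Whether cells with Il2 RNA also held receptor RNA was read from 260 Il2-positive and 1181 Il2-negative cells of set 1 and 674 and 2834 of set 2, a positive cell having at least 1 Il2 UMI. Depth was close between them, with medians of 10117 and 10782 UMIs in set 1 and 4909 and 4833 in set 2. The chains of the IL-2 receptor that confer binding, Il2ra and Il2rb, were lower in Il2-positive cells of both sets, and Il21r was lower in set 2. In set 2, 3 of 7 chains were past 1.5-fold lower, where 2.84% of 8061 genes were lower and 3.82% past the fold in either direction. In set 1, 2 of 7 were, where 1.69% of 8084 genes were lower and 2.86% past the fold in either direction. No chain was past the fold in the other direction in either set, where 0.98% and 1.16% of genes were.

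Il2ra stood at 53.2 CPM in Il2-positive and 126 CPM in Il2-negative cells of set 2, giving a ratio of 0.424 (0.363 to 0.492), and at 82.3 and 133 CPM in set 1, giving a ratio of 0.618 (0.537 to 0.708). Il2rb was at 178 and 352 CPM in set 2, giving a ratio of 0.505 (0.465 to 0.549), and at 163 and 266 CPM in set 1, giving a ratio of 0.613 (0.555 to 0.675). Il21r was at 76.4 and 143 CPM in set 2, giving a ratio of 0.535 (0.470 to 0.606), while in set 1 the ratio was 0.813 with an interval that spans 1 (0.603 to 1.08). The difference thus appeared in both sets for the IL-2 receptor chains, and for Il21r its interval excluded 1 in set 2 only, while the gap between the sets itself was not tested.

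The remaining chains differed less. Il4ra was at 124 and 161 CPM in set 2, giving a ratio of 0.768 (0.692 to 0.850), and had a ratio of 0.827 (0.706 to 0.965) in set 1. Il7r had ratios of 0.905 (0.868 to 0.942) and 0.911 (0.860 to 0.965) in sets 2 and 1, and Il2rg 0.904 (0.855 to 0.955) and 0.941 (0.871 to 1.02). Il9r was the chain that went the other way, at 32.0 against 19.6 CPM in set 1, giving a ratio of 1.63 (1.27 to 2.08), and at 71.1 against 60.6 CPM in set 2, giving a ratio of 1.17 (1.02 to 1.35). With 10 CPM added the Il9r ratio of set 1 stayed within 1.5-fold.

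**Figure D4:**
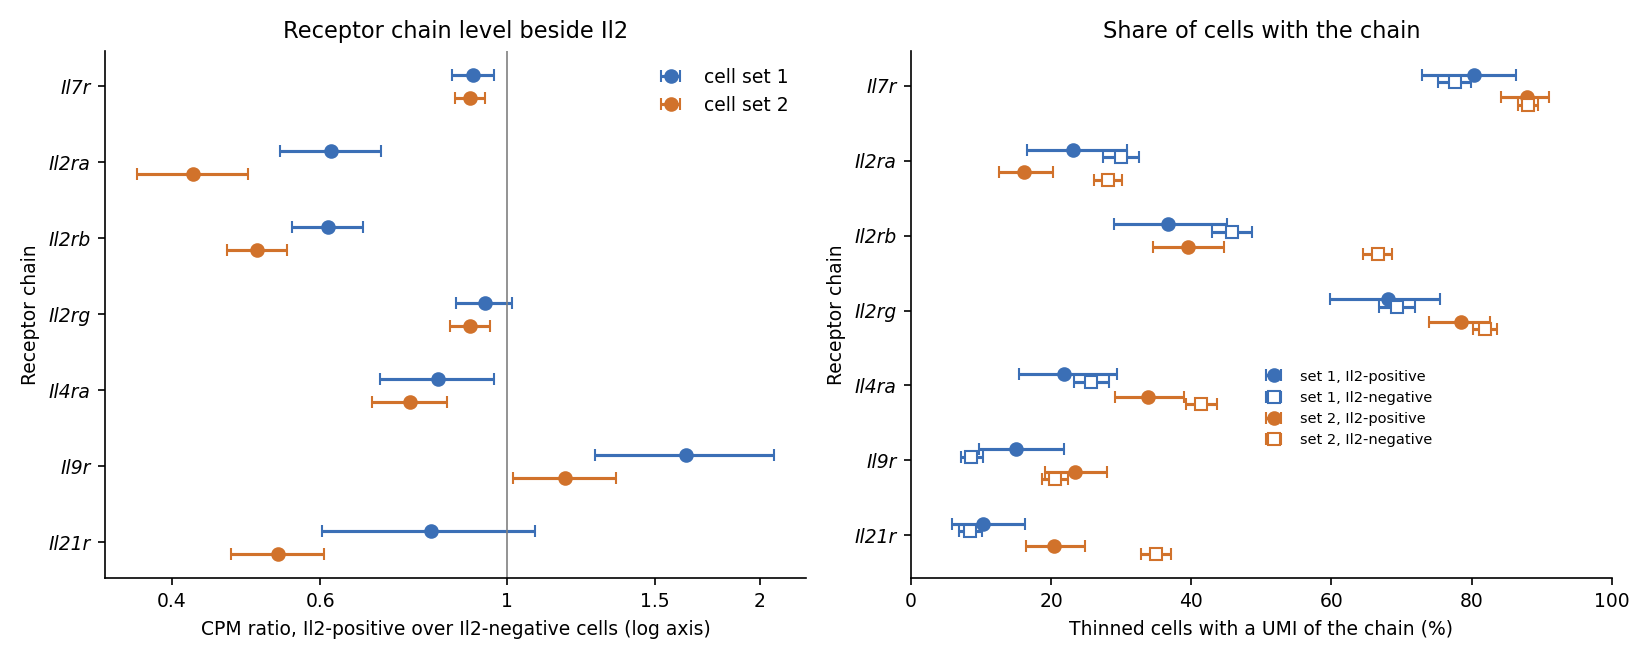
Left, ratio of the level of each receptor chain in Il2-positive over Il2-negative cells (log axis, exact 95% intervals) in cell set 1 (blue) and cell set 2 (orange). Right, percent of thinned cells with a UMI of the chain among Il2-positive (filled circles) and Il2-negative cells (open squares), with exact 95% intervals. Il2ra, Il2rb and, in set 2, Il21r lie to the left, and Il9r to the right of 1.

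At equal depth, 16.1% (12.5 to 20.3) of the 372 Il2-positive cells of set 2 had an Il2ra UMI, against 28.0% (26.1 to 30.1) of 1962 Il2-negative cells. For Il2rb the shares were 39.5% (34.5 to 44.7) and 66.6% (64.5 to 68.7), and for Il21r 20.4% (16.4 to 24.9) and 35.0% (32.9 to 37.1). Il7r (87.9% and 88.1%), Il2rg (78.5% and 82.0%) and Il9r (23.4% and 20.5%) had overlapping intervals, and Il4ra was found in 33.9% and 41.4%, intervals that do not overlap. The Il4ra share ratio expected over all draws was 0.833, with an interval that includes 1 (0.680 to 1.01). Over all genes the median ratio of such shares was 1.01 in set 2 and 0.960 in set 1. In set 1, with 147 Il2-positive cells left, Il2ra was found in 23.1% (16.6 to 30.8) against 29.9% (27.3 to 32.5) and Il2rb in 36.7% (28.9 to 45.1) against 45.8% (43.0 to 48.6), intervals that overlap. The Il2rb share ratio of set 1 was 0.802 in this draw and 0.544 to 0.864 over the alternatives. Expected over all draws it was 0.684, with an interval that excludes 1 (0.494 to 0.904), and for Il2ra it was 0.773 (0.510 to 1.09).

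The levels were also read by the number of Il2 UMIs. In set 2 Il2ra was at 126, 57.6 and 45.2 CPM in cells with 0, with 1 and with 2 or more Il2 UMIs, and Il2rb at 352, 191 and 154 CPM. In set 1 Il2ra was at 133, 84.9 and 78.5 CPM, and Il2rb at 266, 170 and 153 CPM. Most of the difference therefore lay between no UMI and 1 UMI. For both Il2ra and Il2rb the intervals of the groups with 1 and with 2 or more Il2 UMIs overlap in both sets. Il9r stood at 19.6, 27.3 and 38.8 CPM in set 1 and at 60.6, 69.2 and 74.7 CPM in set 2.

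Part of the contrast followed the clusters. Il2-positive cells made up 34.2% of cluster 1 and 10.1% of cluster 5 in set 2, clusters whose Il2ra, Il2rb and Il21r levels differ more than 3-fold. Within cluster 1 the ratio of Il2-positive over Il2-negative cells was 0.601 (0.420 to 0.848) for Il2ra, 0.919 (0.778 to 1.08) for Il2rb and 0.923 (0.717 to 1.18) for Il21r. Within cluster 5 it was 0.730 (0.595 to 0.887) for Il2ra, 0.687 (0.612 to 0.769) for Il2rb and 0.731 (0.615 to 0.863) for Il21r. Within clusters 1, 2 and 5 of set 2, 0 of 7 chains were past 1.5-fold in either direction on CPM with 10 added, in each of the 3 clusters. Within cluster 3 of set 2, with 23 Il2-positive cells, Il2ra (21.3 against 122 CPM) and Il2rb (200.3 against 367 CPM) were past that fold lower.

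Il2ra had a ratio below 1 with an interval that excluded 1 in 6 of the 8 groups of cluster and set with at least 20 Il2-positive cells. These were clusters 0, 3 and 4 of set 1, with ratios of 0.732, 0.523 and 0.331, and clusters 1, 3 and 5 of set 2, with 0.601, 0.175 and 0.730. In cluster 2 the intervals spanned 1, with 0.936 (0.589 to 1.46) in set 1 and 1.42 (0.710 to 2.77) in set 2. All these intervals treat UMIs as independent, and shares of cells within clusters were not computed. The 1% of cells richest in Il2ra held 10.3% of its UMIs in set 1 and 18.3% in set 2. The ratio in cluster 3 of set 2 rests on 5 Il2ra UMIs in the Il2-positive cells. Il2rb was below 1 with its interval in clusters 0, 3 and 4 of set 1 (0.759, 0.518 and 0.705) and clusters 3 and 5 of set 2 (0.546 and 0.687). Il21r in set 1 had ratios of 0.982 (0.653 to 1.43) in cluster 0 and 0.243 (0.00554 to 1.75) in cluster 2. In cluster 3 of set 1 its ratio was 0.455 (0.190 to 0.939), and in cluster 4 it was 1.67 (0.888 to 2.97). Il2rg was lower within cluster 1 of set 2, at 0.883 (0.803 to 0.972), as over the whole set, and cluster 2 was at 0.948 (0.771 to 1.16). Within clusters 3 and 5 of set 2 Il2rg was not lower, at 1.04 (0.808 to 1.32) and 1.14 (1.05 to 1.24). For Il9r the higher level was seen within clusters 0 and 3 of set 1, at 1.68 (1.18 to 2.34) and 1.74 (1.09 to 2.72), while within clusters 1 and 5 of set 2 the ratios were 0.981 and 0.922 with intervals that span 1.

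**Figure D5:**
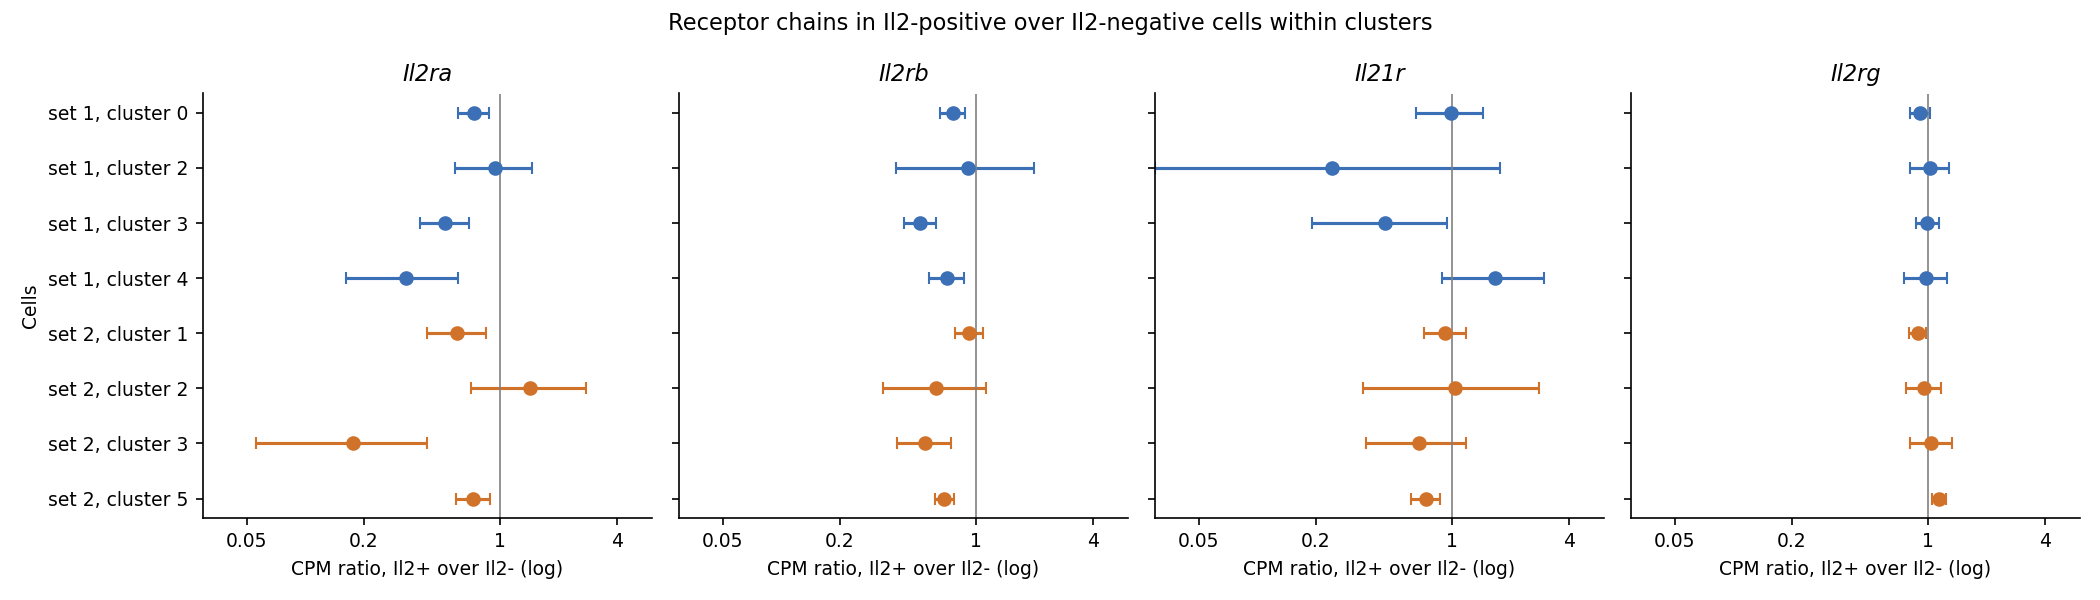
Ratio of the level in Il2-positive over Il2-negative cells within each cluster with at least 20 Il2-positive cells (log axis, exact 95% intervals, set 1 in blue, set 2 in orange), for Il2ra, Il2rb, Il21r and Il2rg. Il2ra lies left of 1 in 6 of 8 groups with its whole interval, and Il2rg stays near 1. The interval of Il21r in cluster 2 of set 1, which rests on 1 UMI in the Il2-positive cells, runs off the left edge.

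Complete receptors were counted as cells with a UMI of every chain, after thinning. The IL-7 receptor pair Il7r and Il2rg was found together in 54.7% (52.0 to 57.4) of set 1 and 71.9% (70.1 to 73.8) of set 2. All 3 chains of the high-affinity IL-2 receptor were found in 10.7% (9.15 to 12.5) and 16.8% (15.3 to 18.4). In set 2 that was 8.87% (6.19 to 12.2) of Il2-positive and 18.3% (16.6 to 20.1) of Il2-negative cells. In set 1 it was 7.48% (3.79 to 13.0) and 11.1% (9.43 to 13.0), with overlapping intervals. Il4ra with Il2rg was found in 18.6% and 33.1% of sets 1 and 2, Il21r with Il2rg in 5.88% and 27.5%, and Il9r with Il2rg in 6.24% and 17.4%. None of the 7 chains had a UMI in 2.54% of set 1 and 0.428% of set 2. These shares count captured RNA and are not shares of cells that carry the receptor.

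Among pairs of receptor chains at equal depth, the neighbours Il4ra and Il21r had the highest ratio in set 1. Il21r was found in 15.5% of Il4ra-positive and 6.21% of Il4ra-negative cells of set 1, giving a ratio of 2.50, and in 41.0% and 27.0% in set 2, giving a ratio of 1.52. In set 2 the pair of Il2rb and Il21r had a higher ratio, 1.71. Il9r was found less often beside Il2rb, in 6.15% of Il2rb-positive and 11.8% of Il2rb-negative cells of set 1, giving a ratio of 0.519, and in 19.4% and 23.5% in set 2, giving a ratio of 0.825. The lowest ratio of any pair was that of Il2rb with Il2 in set 2, where 10.1% of Il2rb-positive and 25.6% of Il2rb-negative cells had Il2.

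Other genes moved with Il2. In Il2-positive against Il2-negative cells the early-response gene Fosb was at 816 and 530 CPM in set 2 and at 351 and 165 CPM in set 1, and the stress gene Hspa1a at 1562 and 678 CPM and at 1923 and 747 CPM. Their part in the receptor differences was not tested. Of the T cell markers, Cd3e was at 1.93 and 6.94 CPM in set 2 and at 7.03 and 7.46 CPM in set 1, and Foxp3 had 0 UMIs in the Il2-positive cells of either set. Cd4 was at 5.24 and 1.46 CPM in set 2, giving a ratio of 3.59 (1.83 to 7.02), and at 10.9 and 12.0 CPM in set 1. Cd3g was at 649.9 and 504 CPM in set 2 and at 568 and 433 CPM in set 1. The summed alpha beta T cell list was at 1619 and 1439 CPM in set 2 and at 1400 and 1218 CPM in set 1. Without cells holding Cd3e, Cd3d, Trac, Cd8a or Foxp3 UMIs, the ratio of Il2ra was 0.471 (0.401 to 0.551) in set 2 and 0.63 (0.537 to 0.735) in set 1. By share of thinned cells, the genes that led Il2-positive cells were Fdxacb1, Prmt2, Usp20, Tktl1, Itpripl2, Cdh24, Kcnk5, B4gat1, Smpd5 and Coasy in set 1, each found in under 10% of them. In set 2 they were Wdr91, Cdk5r1, Klrb1f, Zp1, Rcor3, Nudt13, Fbxl8, Recql, Slc15a1 and Asb3, and 0 genes were on both lists.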

How the data were processed

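The deposited table holds UMI counts, whole numbers per gene and cell that the authors had not scaled, from a 10x Genomics 5' library of each of 2 days, per the labels' protocols. The submitters' processing notes name Cell Ranger 3.1.0, Seurat 4.1.0 and mm10, without settings. The table was taken as 1 pooled sample and split by the suffix of the cell names. The barcodes of 4 cells occurred in both sets. Cells with at most 10% mitochondrial UMIs were kept (4949 of 5246, with 16514632 UMIs in set 1 and 18026148 in set 2), and a gene's level is its summed UMIs per 1000000 of the set (CPM). Intervals are exact at 95% (Poisson for levels, Clopper-Pearson for shares, binomial for ratios of levels). Limits of share ratios are not exact: the lower limit of each share was divided by the upper limit of the other, and the reverse. For shares expected over all draws, the limits used rounded expected counts. A fold of 1.5 on CPM + 10 stood in place of a test, over genes with at least 100 UMIs, or 50 for the pathway list. Shares were also computed with each cell thinned to 4108 UMIs, the lower quartile. Clusters came from scanpy 1.11.5 (2000 variable genes, 30 principal components, 15 neighbours, Leiden resolution 0.5). Scrublet called 7 doublets, 0.141% of cells, too few to have worked, so none were removed except in an alternative. edgeR 4.0.16 gave the TMM factors of the other scaling. The scripts were tested on simulated data. The named genes are the 8 members, up to 4 genes of each pathway sub-list by the size of their ratio, the 5 genes most like each member, the 10 leading genes of Il2-positive cells, and marker genes, and 1 gene that this rule picked is not reported here. Genes, lists and cut-offs were chosen with earlier results of these data known, and the alternatives were the mitochondrial limit, scaling, pseudocount, depth, subsets of cells, clustering and the limit for a positive cell. Leaving out clusters 1, 6 and 7, clustering without the 8 genes, and shares expected over all thinning draws were chosen after seeing the data. Promoter sequences are from RefSeq, build GRCm38.p6.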

Additional observations from a re-analysis of the deposited data

Results flagged for a closer look

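The cells left out for their mitochondrial share, which no comparison above uses, also held RNA of all 8 genes. There were 30 such cells in set 1, at a median of 2270 UMIs, and 267 in set 2, at a median of 898. In set 1 they held 83 UMIs of Il7r, 26 of Il2ra, 24 of Il2rg, 11 of Il2rb, 6 of Il9r, 5 of Il4ra, 5 of Il2 and 4 of Il21r. In set 2 they held 406 UMIs of Il7r, 227 of Il2rg, 90 of Il4ra, 73 of Il2rb, 52 of Il21r, 36 of Il2ra, 23 of Il9r and 19 of Il2. Relative to all their UMIs, Il7r was at 1390 CPM (1258 to 1532) and Il4ra at 308 CPM (248 to 379) in the left-out cells of set 2, above the 851 and 153 CPM of the kept cells, and Il2rg was at 777 CPM (679 to 885) against 467 CPM. Il2rb was lower there, at 249.9 CPM (196 to 314) against 317 CPM. In the left-out cells of set 1 Il2ra was at 284 CPM (186 to 417) against 124 CPM in the kept cells, and Il2rb at 120.3 CPM (60.0 to 215) against 249 CPM. Il2 was at 65.0 CPM (39.2 to 101.6) in the left-out cells of set 2, an interval that includes the 73.2 CPM of that set's kept cells. No control samples exist, so each count is set only against the 3 UMIs that a count of 0 allows.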

How the results depend on the processing

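The number of the 8 genes past 1.5-fold between the sets, and the number of pathway genes, stayed within 1.5 times of 6 and 21 under every alternative run, but without cluster 1 the 6 genes past the fold held Il2rb (1.55) in the place of Il2 (1.24). The number of receptor chains past the fold between Il2-positive and Il2-negative cells was less stable: in set 1 it went from 2 to 1 without cells with cycling UMIs, to 1 in cells with only Y-linked UMIs, to 0 within cluster 0 and to 1 within cluster 2. In set 2 it went from 3 to 0 within cluster 1, to 0 within cluster 2 and to 0 within cluster 5. Fewer cells enter these subsets, of which clusters 1 and 5 of set 2 held 1030 and 1858 cells. The ratios within clusters are given above, and the cause of the lower counts was not tested. Of the alternative values of single genes, 731 lay within the counting interval of the reported value, 171 outside it, and 15 changed direction. Direction was judged only for the 24 ratios whose reported interval excludes 1. Of 186 alternative values of the other 12 ratios, 43 lay on the other side of 1. The 15 were the Il2ra ratio of set 2 over set 1 without cluster 1 (1.12), the Il7r ratio beside Il2 in set 1 from thinned cells (1.11), and in set 2 the share ratio of Il4ra at 2 or more UMIs (1.00063) and the Il2rg ratio without cluster 1 (1.01). The others were ratios beside Il2 within clusters. In set 2 they were Il7r (1.10) and Il9r (0.981) in cluster 1, Il2ra (1.42), Il4ra (1.46) and Il21r (1.03) in cluster 2, Il2rg (1.04) and Il4ra (1.14) in cluster 3, and Il2rg (1.14) and Il9r (0.922) in cluster 5. In set 1 they were Il9r in cluster 2 (0.888) and Il4ra in cluster 4 (1.03). Outside clusters, the Il2rb ratio beside Il2 ran from 0.468 to 0.563 in set 2 and from 0.590 to 0.640 in set 1. With the 8 genes left out of the variable genes or at other resolutions, the highest Il2 level of a cluster of set 2 was 161 to 163 CPM, and that of set 1 90.7 to 158 CPM. No paired analysis was possible because each day has 1 library and the cell sets were assigned to no sample.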

Other observations

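Type 2 cytokine genes did not all differ in the same direction beside Il2. In set 1 Il4 was at 214 CPM in Il2-positive and 44.9 CPM in Il2-negative cells, giving a ratio of 4.76 (4.25 to 5.33), and in set 2 at 57.1 and 22.8 CPM, giving a ratio of 2.50 (2.09 to 2.98). Il13 was at 424 and 204 CPM in set 1, giving a ratio of 2.08 (1.94 to 2.22), and at 397 and 354 CPM in set 2, giving a ratio of 1.12 (1.06 to 1.19). Shares of cells, without thinning, differed less in set 1. Il4 was found there in 28.8% of Il2-positive and 18.4% of Il2-negative cells, and Il13 in 55% and 45.1%. The level ratios thus also rest on UMIs per positive cell. Their intervals treat UMIs as independent, and how far a few cells carry the ratios was not tested. Il5, the eosinophil growth factor, was lower beside Il2 in both sets, at 34.5 and 169 CPM in set 1, giving a ratio of 0.204 (0.165 to 0.250), and at 83.0 and 280 CPM in set 2, giving a ratio of 0.296 (0.262 to 0.333). Tnf was higher beside Il2, at 62.6 and 16.8 CPM in set 1 and at 87.4 and 39.0 CPM in set 2. These genes were chosen after their values were seen.

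From the list of factors known to bind or induce the Il2 promoter, 6 of 17 were past 1.5-fold higher in Il2-positive cells of set 1, namely Fos, Fosb, Jun, Junb, Egr1 and Nr4a1, and Bach2 was lower. In set 2 Fos, Fosb, Jun and Nr4a1 were higher and Rela and Nfkb1 lower, again of 17. Nr4a1, a gene induced by antigen receptor and other activating signals, was at 1253 and 600 CPM in set 1 and at 1168 and 656 CPM in set 2. Of 10 kinases and STATs, 0 were higher and 2 lower in set 1 (Stat3 and Stat4), and 0 were higher and 4 lower in set 2 (Jak2, Stat3, Stat4 and Stat5a). Past the fold, 1.16% of all genes were higher and 1.69% lower in set 1, and 0.98% higher and 2.84% lower in set 2.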
